A study of Capra hircus with 13 samples.

Results

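The transcription machinery was taken by gene name, as every name that begins with *POLR1*, *POLR2*, *POLR3*, *GTF2* or *GTF3*, or with *TAF*, *MED* or *SUPT* followed by a number. The rule found 108 genes among 27142 names, of which 107 were listed in all 5 tables, and *POLR2C* was listed only for injected embryos. They comprise 27 RNA polymerase subunits, 14 GTF2 genes, 7 GTF3 genes, 23 TAF genes, 30 Mediator genes and 7 SUPT genes. Messenger RNA was measured by Smart-seq2, a full-length RNA-seq method for few cells, in 13 goat libraries, all given by the authors as FPKM, fragments scaled to gene model length and library total. The untreated groups were MII oocytes (mature oocytes before fertilization, 3 libraries), 4-cell stage embryos (3 libraries) and 8-cell stage embryos (3 libraries). The injected groups were 8-cell stage embryos that received a universal negative control siRNA (NC siRNA, 2 libraries, titled WT) or siRNA against *YTHDF2*, an m6A reader that promotes mRNA decay (YTHDF2 siRNA, 20 µM, 2 libraries). In both groups the siRNA was put into the cytoplasm of zygotes 8 h after *in vitro* fertilization. Each injected library was a pool of embryos, and this is a knockdown by siRNA, not a deletion of the gene. The labels give no strain, age or sex for any group.

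RNA polymerase I makes ribosomal RNA, RNA polymerase II makes messenger RNA, and RNA polymerase III makes transfer RNA and 5S ribosomal RNA. The general factors TFIIA, TFIIB, TFIID, TFIIE, TFIIF and TFIIH place RNA polymerase II at a start site, Mediator connects it to factors bound at enhancers, and DSIF (SPT4 with SPT5), SPT6 and FACT act on the polymerase as it moves through chromatin. The MII oocyte is transcriptionally quiet and lives on stored messenger RNA, which the embryo breaks down as it starts its own transcription. An mRNA level does not give the amount of the protein, and much of the machinery can be present as stored protein.

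The 9 untreated libraries held 26853876 to 42495116 fragments, so 3 fragments on a gene of 1 kb corresponded to 0.0706 to 0.112 FPKM. The 8 oocyte markers, such as *ZP3* and *GDF9*, summed to 1384 to 2380 FPKM at MII, 2082 to 3311 in 4-cell embryos and 2474 to 2822 in 8-cell embryos. The 3 listed of 5 cleavage markers (*KLF17*, *LEUTX* and *ARGFX*) summed to 9.51 to 13.2 FPKM at MII, 49.2 to 114 in 4-cell embryos and 311 to 1083 in 8-cell embryos. The 9 listed of 10 cumulus or granulosa markers summed to 56.9 to 76 FPKM at MII and 67.6 to 74.9 in 4-cell embryos. In 8-cell embryos they summed to 95.6 to 142 FPKM, with each library above all others. Of these markers, 3 to 6 reached 1 FPKM in a library, and *AMH* was below 0.1 FPKM in each of the 9 libraries. The 3 listed of 6 sperm markers summed to at most 0.99 FPKM. The part of these markers in the stage results was not tested. MII replicate 2 lay more than 2-fold above both other MII libraries for 11 of 92 members tested, 4-cell replicate 2 for 11 and 8-cell replicate 1 for 13. The same was not counted over all genes, so these counts are not shown to be particular to the members. The untreated libraries came from 2 earlier studies, with the study of each not stated, so stage and study cannot be told apart. In bulk libraries fewer cells of a type and less RNA per cell cannot be told apart either.

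The genes shared by the stage tables took 64.9 to 66.3% of the MII fragments and 94.7 to 97.0% of the embryo fragments. With the FPKM as deposited, the median of all 9090 genes tested was not at 0, but at a log2 fold change of 0.286 in 4-cell embryos against MII and 0.368 in 8-cell embryos against MII. Fold changes and calls below are against 0, not against these medians, and each call was repeated under 3 rescalings. These brought the medians of all genes to between -0.141 and 0.0586 in 4-cell embryos and between -0.0607 and 0.06 in 8-cell embryos.

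Of the 108 genes, 92 reached a mean of 1 FPKM over the untreated libraries and were tested. Among those listed but not tested, none above a mean of 0.904 FPKM, were *GTF2IRD1*, *GTF3C1*, *GTF3C4*, *MED9*, *MED11*, *MED12*, *MED16*, *MED25*, *MED31*, *POLR3E*, *POLR3GL*, *TAF1C*, *TAF6L* and *TAF7L*. A gene was called where the Benjamini-Hochberg adjusted p over all genes of the fit was under 0.05. At the 4-cell stage against MII, 21 of the 92 rose, where 24.7% of all genes tested rose, and 7 fell, where 6.42% of all genes fell. At the 8-cell stage against MII, 22 rose against a background of 27.3%, and 16 fell against a background of 10.0%. From 4-cell to 8-cell embryos 2 rose (background 3.06%) and 8 fell (background 5.24%). The shares of members called were 22.8% and 7.61%, 23.9% and 17.4%, and 2.17% and 8.70%, and their difference from the background was not tested. Of the 8 falls between the embryo stages, *GTF2H3* and *MED14* were called with a replicate block, and *GTF2H3* alone in a fit of those stages, where *POLR2G* was called as well. The median log2 fold change of the members was 0.245, 0.232 and -0.0647, beside 0.286, 0.368 and 0.0716 for all genes. Without any 1 of the 9 libraries in turn, 16 of the 21 rises and 4 of the 7 falls in 4-cell embryos kept their call, and 13 of the 22 rises and 8 of the 16 falls in 8-cell embryos. Not kept were *GTF2H3*, *MED15*, *POLR2G*, *POLR2H*, *POLR3K*, *TAF1A*, *TAF4B* and *TAF12* in 4-cell embryos, and in 8-cell embryos *GTF2A1L*, *GTF2A2*, *GTF2E1*, *GTF2H1*, *GTF2H5*, *GTF2I*, *GTF3A*, *MED4*, *MED6*, *MED7*, *MED12L*, *POLR1B*, *POLR2B*, *POLR2D*, *POLR2F*, *POLR3B* and *SUPT5H*. The split between rises and falls turned with the scaling. Each of the 7 and 16 falls against MII was called in all 3 rescalings. Of the rises against MII, 9 of 21 in 4-cell embryos were (*GTF2E2*, *GTF3C6*, *MED7*, *MED28*, *POLR2D*, *POLR2K*, *SUPT4H1*, *TAF1D* and *TAF9B*), and 9 of 22 in 8-cell embryos (*GTF2E2*, *MED26*, *MED28*, *POLR3C*, *POLR3G*, *SUPT4H1*, *TAF1D*, *TAF4B* and *TAF9B*). Members not called as deposited were called lower against MII in at least 1 rescaling for 10 genes in 4-cell embryos (*GTF2F2*, *MED1*, *MED6*, *MED21*, *POLR1A*, *POLR1B*, *SUPT6H*, *TAF3*, *TAF5* and *TAF8*), with *SUPT6H* and *TAF5* called in all 3. In 8-cell embryos there were 12 (*GTF2F2*, *MED15*, *MED17*, *MED19*, *MED30*, *POLR1A*, *POLR3K*, *TAF1*, *TAF1B*, *TAF2*, *TAF5* and *TAF8*), with *GTF2F2*, *MED15*, *TAF2*, *TAF5* and *TAF8* called in all 3. At the 4-cell stage against MII it was 13 to 11, 9 to 13 or 10 to 17 under the rescalings, while the share of falls among the calls of all genes went from 20.6% to 46, 58 or 60.3%. At the 8-cell stage against MII it was 11 to 23, 10 to 24 or 10 to 28, while the same share of all genes went from 26.8% to 49.4, 51.9 or 59.2%.

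**Figure D1:**
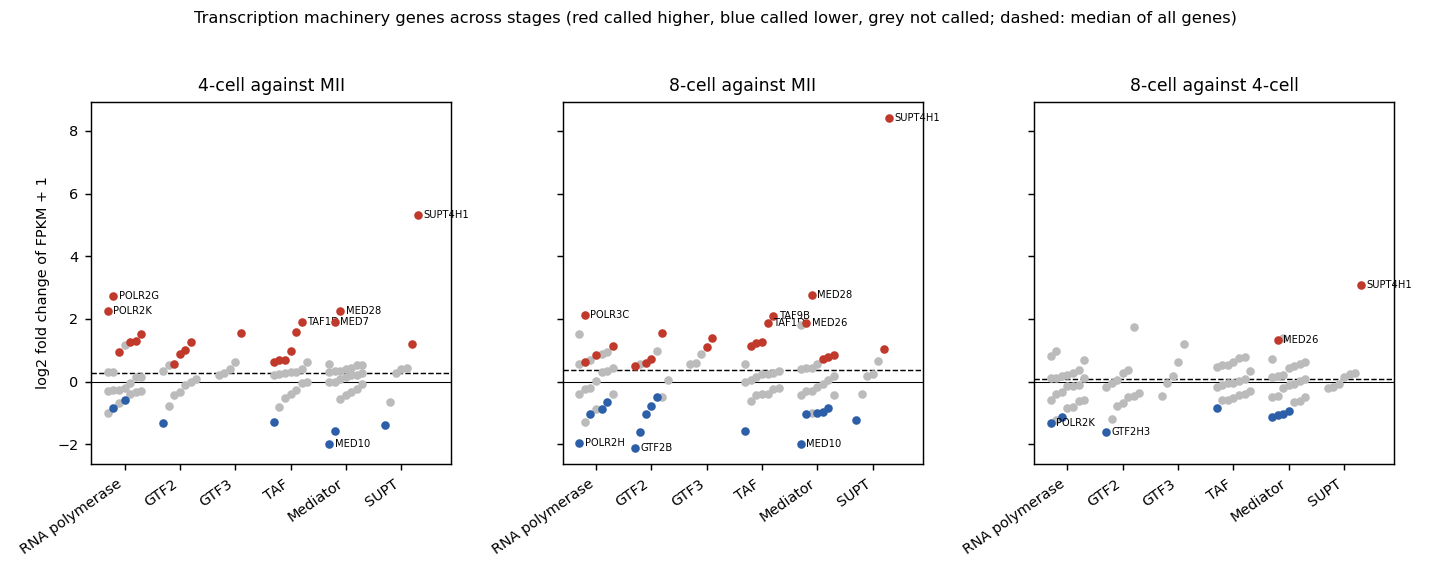
Log2 fold change of FPKM + 1 (vertical axis) of the 92 tested genes in the 3 stage comparisons, by gene group along the horizontal axis. Each point is a gene, red if called higher, blue if called lower and grey if not called, and the dashed line is the median of all 9090 genes tested. *SUPT4H1* lies above every other member in each panel, at 5.31, 8.40 and 3.08, and most grey points lie between -1 and 1.

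The SUPT genes held the largest change of the members in each stage comparison. *SUPT4H1* encodes SPT4, the small subunit of the elongation factor DSIF. It was at 0.0351, 0.0851 and 0.706 FPKM in the MII libraries, which is 2, 5 and 50 fragments, at 19.75, 123.03 and 45.76 FPKM in the 4-cell libraries and at 466, 325 and 479 FPKM in the 8-cell libraries. The 3 stages did not overlap, and in 8-cell embryos it had the highest mean FPKM of all members. It rose by a log2 fold change of 5.31 ± 0.54 (SE) in 4-cell embryos (adjusted p = 0.00022) and 8.40 ± 0.54 in 8-cell embryos (adjusted p = 1.4e-05) on the log2(FPKM + 1) scale, which understates the change of a gene so low at MII. It kept its call under each rescaling and without each library in both comparisons with MII. Between the embryo stages it rose by 3.08 (adjusted p = 0.012), a call that was lost without 4-cell replicate 3 (log2 fold change 3.04, adjusted p = 0.052).

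*SUPT5H*, which encodes SPT5, the DSIF partner of SPT4, went the other way. It was at 13.6, 10.2 and 12.8 FPKM at MII, at 3.29, 6.08 and 3.17 in 4-cell embryos and at 6.52, 2.73 and 5.18 in 8-cell embryos, so every embryo library lay below every MII library. It fell by 1.39 on the log2 scale in 4-cell embryos (adjusted p = 0.0096) and by 1.24 in 8-cell embryos (adjusted p = 0.013), under each rescaling too, and the 8-cell call was lost without MII replicate 1 (adjusted p = 0.054). The ratio of *SUPT4H1* to *SUPT5H* FPKM within a library, which no rescaling of the library alters, was 0.00258 to 0.055 at MII, 6 to 20.2 in 4-cell embryos and 71.5 to 119 in 8-cell embryos. The mRNAs of the DSIF subunits thus lay on opposite sides of each other before and after fertilization in all 9 libraries.

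The other SUPT genes stayed within narrower bounds. *SUPT20H*, a core subunit of the coactivator SAGA, rose from 27.3 to 31.5 FPKM at MII to 59.8 to 84.6 in 4-cell and 53.4 to 77.5 in 8-cell embryos (adjusted p = 0.0021 and 0.0034), with its call kept under 2 of 3 and 0 of 3 rescalings. *SUPT16H*, the large subunit of the histone chaperone FACT, ranged from 25 to 42.8 FPKM over the 9 libraries and was not called (log2 fold change 0.26 ± 0.21 and 0.19 ± 0.21 against MII). *SUPT6H* (SPT6), at 0.433 to 1.74 FPKM, and the SAGA genes *SUPT3H* and *SUPT7L*, at 2.73 to 5.73 and 7.08 to 21.5 FPKM, were not called in any stage comparison as deposited, and *SUPT6H* was called lower in 4-cell embryos against MII in each rescaling (-0.84 with equal median ratios, adjusted p = 0.035).

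**Figure D2:**
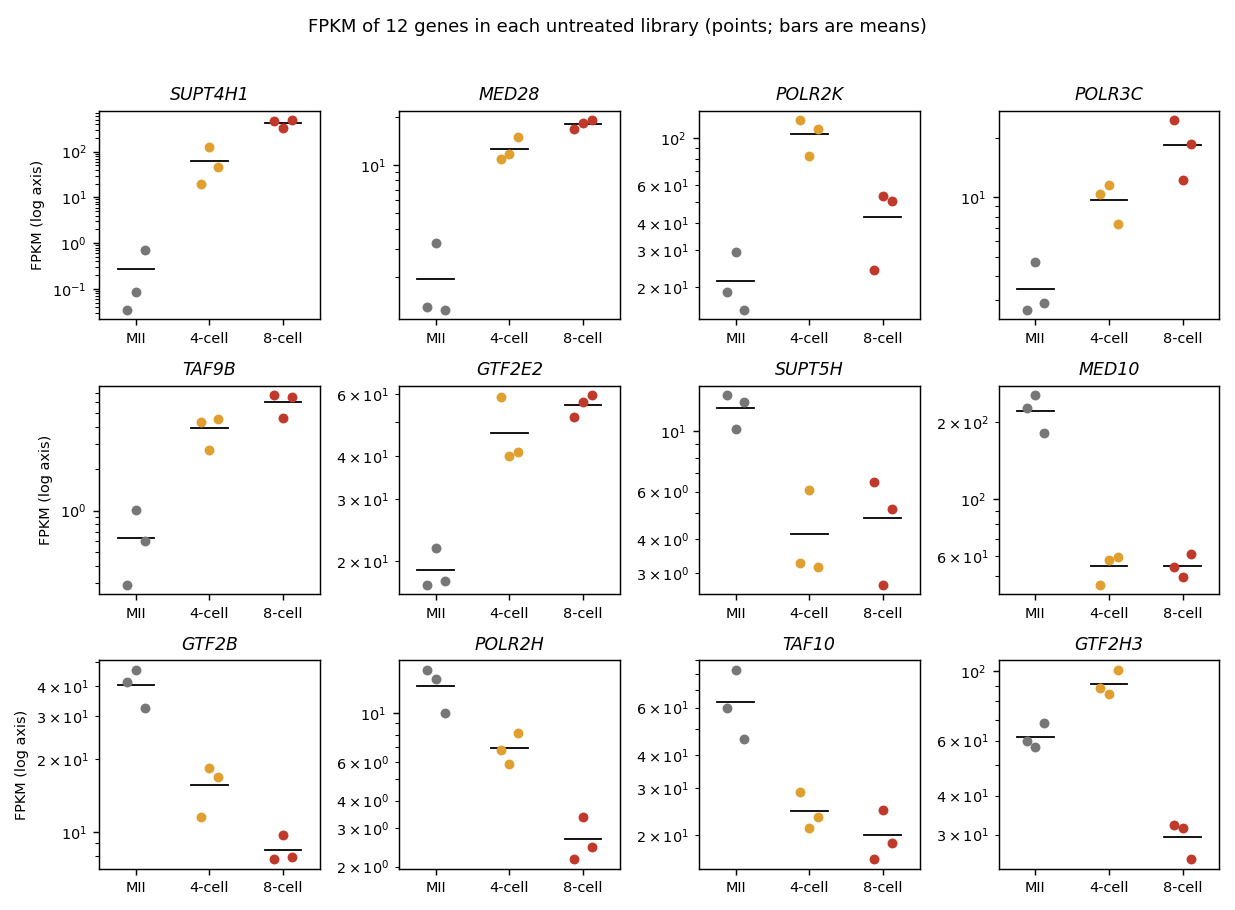
FPKM on a log axis (vertical) of 12 members in each of the 9 untreated libraries, by stage (horizontal), with a point per library and a bar at the mean. The upper 6 genes are called higher in at least 1 comparison with MII, and of the lower 6 *SUPT5H*, *MED10*, *GTF2B*, *POLR2H* and *TAF10* lie below MII at both embryo stages, whereas *GTF2H3* lies above it in 4-cell embryos and below it in 8-cell embryos.

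Of the 27 RNA polymerase genes 23 were tested, with 6 rises and 2 falls in 4-cell embryos, 4 rises and 4 falls in 8-cell embryos (both against MII), and 2 falls between the embryo stages. Over all genes tested the rises and falls were 24.7 and 6.42%, 27.3 and 10.0%, and 3.06 and 5.24%. None of the largest catalytic subunits was called in a stage comparison as deposited. *POLR2A*, which carries the C-terminal repeats of RNA polymerase II, was at 5.63, 3.98 and 2.63 FPKM at MII, 2.18, 4.45 and 2.05 in 4-cell embryos and 19.9, 1.35 and 3.55 in 8-cell embryos. The stages overlapped, and 8-cell replicate 1 stood apart from the rest (log2 fold change 0.30 ± 0.68 against MII). *POLR1A* of RNA polymerase I was at 0.932 to 2.89 FPKM at MII and 0.181 to 1.59 in the embryos (adjusted p = 0.092 and 0.12, or 0.034 and 0.037 with equal median ratios, with calls in 2 of 3 rescalings at both stages), and *POLR3A* of RNA polymerase III at 0.734 to 2.3 FPKM over all 9 libraries. *POLR2B*, the second catalytic subunit of RNA polymerase II, was at 16.3, 17.7 and 11.9 FPKM at MII, 14.3, 17.4 and 12.1 in 4-cell embryos and 5.66, 10.7 and 7.9 in 8-cell embryos. It was called lower in 8-cell embryos, by a fall of 0.86 on the log2 scale against MII (adjusted p = 0.028, with 0.89 in 4-cell embryos), and lost that call without MII replicate 1 or 2 or without 8-cell replicate 1 or 3. *POLR1B*, its counterpart in RNA polymerase I, also fell in 8-cell embryos against MII, by 0.65 (adjusted p = 0.044).

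The small subunits shared by the 3 nuclear polymerases moved apart from each other. *POLR2K* was at 19.1, 29.3 and 15.7 FPKM at MII, 121, 82.6 and 110 in 4-cell embryos and 24.1, 53.8 and 50.6 in 8-cell embryos. It thus peaked in the 4-cell libraries, all 3 of which lay above every other untreated library, rising by 2.26 ± 0.33 on the log2 scale against MII (adjusted p = 0.0013) and falling by 1.33 afterwards (adjusted p = 0.042). The rise was called under each rescaling and without each library, whereas the fall was called in 1 of 3 rescalings and in 2 of the 9 fits that leave a library out. *POLR2H* went down at each step, from 15.8, 14.4 and 10 FPKM to 6.83, 5.86 and 8.16 and then to 2.16, 3.37 and 2.45. The stages did not overlap, and the fall from MII to 8-cell embryos was 1.97 ± 0.24 on the log2 scale (adjusted p = 0.00036), kept without each library. *POLR2F* was at 75.6 to 98.5 FPKM at MII, 58.3 to 86.8 in 4-cell embryos and 26.2 to 53.2 in 8-cell embryos, a fall of 1.03 from MII to 8-cell embryos (adjusted p = 0.016) that was not called without MII replicate 2. *POLR2E* and *POLR2L* were not called in any stage comparison, at 0.48 to 2.52 FPKM and, but for 15.6 in MII replicate 2, 0.0766 to 1.7 FPKM.

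The RNA polymerase II stalk is made of the products of *POLR2D* and *POLR2G*. *POLR2D* was at 4.83, 7.76 and 5.12 FPKM at MII and 13.4, 18.3 and 15 in 4-cell embryos, a rise of 1.27 ± 0.22 (adjusted p = 0.0028) called under each rescaling. *POLR2G* was at 2.35, 42.5 and 2.44 FPKM at MII, 55.4, 39.8 and 64.5 in 4-cell embryos and 17.9, 25 and 23 in 8-cell embryos. MII replicate 2 alone made the groups overlap. The rise in 4-cell embryos was 2.74 ± 0.83 with it (adjusted p = 0.032) and 3.97 without it (adjusted p = 7.9e-05), and was called in 1 of 3 rescalings and in 4 of 9 fits without a library. *POLR2M*, which encodes a protein bound to RNA polymerase II (Gdown1), was at 2.19, 7 and 3.46 FPKM at MII and 11.1, 15.3 and 12.4 in 4-cell embryos, with the same library highest at MII, and rose by 1.51 (adjusted p = 0.01), or 1.87 without MII replicate 2 (adjusted p = 0.0031), with the call kept in 1 of 3 rescalings. *POLR2J* was the highest of the polymerase genes in the untreated libraries, at 169 to 285 FPKM, and was not called.

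In RNA polymerase III, *POLR3C* and *POLR3G*, both of the initiation subcomplex, rose. *POLR3F* of the same subcomplex, with means of 2.24 FPKM at MII, 2.62 in 4-cell and 3.11 in 8-cell embryos, was not called. *POLR3C* was at 2.69, 4.68 and 2.92 FPKM at MII, 10.4, 11.5 and 7.36 in 4-cell embryos and 24.6, 12.2 and 18.7 in 8-cell embryos, without overlap between stages. Its rise to 8-cell embryos was 2.11 ± 0.30 on the log2 scale (adjusted p = 0.00073), called under each rescaling and without each library. *POLR3G* was at 6.08 to 9.05 FPKM at MII, 13.6 to 17 in 4-cell and 15.4 to 19.7 in 8-cell embryos (log2 fold change 1.14 ± 0.20 in 8-cell embryos against MII, adjusted p = 0.0022). *POLR3B*, the second catalytic subunit, rose by 0.61 in 8-cell embryos (adjusted p = 0.021), a call kept in none of the rescalings. *POLR3K* fell from 45, 53.2 and 48.8 FPKM to 35, 32.5 and 28.9 in 4-cell embryos (fell by 0.60, adjusted p = 0.025) and was at 36 to 47.4 FPKM in 8-cell embryos, where it was not called as deposited and was called lower in 2 of 3 rescalings.

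Among the 14 GTF2 genes, which encode the general factors of RNA polymerase II and TFII-I, 13 were tested. Of these 4 rose and 1 fell in 4-cell embryos, and 4 rose and 5 fell in 8-cell embryos, both against MII. Over all genes tested the rises and falls were 24.7 and 6.42%, and 27.3 and 10.0%. *GTF2B* encodes TFIIB, which joins the polymerase to the promoter complex. It was at 41.6, 46.5 and 32.5 FPKM at MII, 11.6, 18.3 and 16.9 in 4-cell embryos and 7.75, 9.75 and 7.91 in 8-cell embryos, so that the 3 stages did not overlap. It fell by 1.32 ± 0.23 on the log2 scale in 4-cell embryos (adjusted p = 0.0025) and by 2.11 ± 0.23 in 8-cell embryos (adjusted p = 0.00018), under each rescaling and without each library.

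The subunits of TFIIE and TFIIH did not move together. *GTF2E2* of TFIIE rose from 17.1, 21.7 and 17.5 FPKM at MII to 58.8, 40 and 40.9 in 4-cell and 51.7, 56.9 and 59.7 in 8-cell embryos (1.54 ± 0.20 in 8-cell embryos, adjusted p = 0.00041), with every embryo library above every oocyte library. Its partner *GTF2E1* fell in 8-cell embryos by 0.50 (adjusted p = 0.049), from 76.3 to 84 FPKM to 47.8 to 61.7, a call lost in 7 of the 9 fits without a library. *GTF2H3* of TFIIH was at 59.7, 57 and 68.5 FPKM at MII, 88.3, 84.4 and 101 in 4-cell embryos and 32.3, 31.4 and 25 in 8-cell embryos. Its rise in 4-cell embryos (0.56, adjusted p = 0.031) was called in no rescaling. Its falls in 8-cell embryos, by 1.04 against MII (adjusted p = 0.0013) and by 1.60 against 4-cell embryos (adjusted p = 0.0025), were called in each rescaling and without each library, and the latter was the only fall between the embryo stages that no left-out library ended. *GTF2H5* was at 32.7, 79.5 and 15.4 FPKM at MII and 7.81, 15.9 and 9.58 in 8-cell embryos, with overlap, and fell by 1.61 (adjusted p = 0.029) or, without MII replicate 2, by 1.02 (adjusted p = 0.062). *GTF2H1* rose by 0.59 in 8-cell embryos (adjusted p = 0.037), in no rescaling.

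TFIIA, which steadies the TATA-binding protein on DNA, has a large subunit from *GTF2A1* or its germ cell paralog *GTF2A1L*. *GTF2A1* was at 45.1, 35.6 and 43.2 FPKM at MII, 109, 82.3 and 64.8 in 4-cell embryos and 60.8, 51.8 and 71.6 in 8-cell embryos, and it rose in 4-cell embryos by 1.01 (adjusted p = 0.0078), in no rescaling. *GTF2A1L* was at 154, 222 and 143 FPKM at MII and 78.9, 113 and 105 in 8-cell embryos, a fall of 0.79 (adjusted p = 0.022) called in each rescaling. *GTF2A2*, the small subunit, rose from 162 to 236 FPKM to 247 to 376 in 8-cell embryos (0.71, adjusted p = 0.025), in no rescaling. *GTF2I* (TFII-I) rose by 0.87 in 4-cell embryos (adjusted p = 0.0046), in no rescaling. It also rose in 8-cell embryos, by 0.50 (adjusted p = 0.041), in no rescaling, and there its sign was kept in 2 of 3 rescalings.

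The 7 GTF3 genes serve RNA polymerase III, and 5 of them were tested. *GTF3C6* of TFIIIC was at 5.9, 10.4 and 7.48 FPKM at MII, 18.3, 24.3 and 34.1 in 4-cell embryos and 17.7, 16 and 19.6 in 8-cell embryos. It rose by 1.56 ± 0.27 in 4-cell embryos (adjusted p = 0.0025), in each rescaling, and by 1.10 in 8-cell embryos (adjusted p = 0.01), in none. *GTF3A* (TFIIIA, the factor of the 5S ribosomal RNA gene) was at 0.806, 1.08 and 1.48 FPKM at MII and 10.5, 2.19 and 3.71 in 8-cell embryos. It rose by 1.40 (adjusted p = 0.037), or by 0.88 without 8-cell replicate 1 (adjusted p = 0.059), and was called in 1 of 3 rescalings. The rest, *GTF3C2*, *GTF3C3* and *GTF3C5*, were not called.

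The TAF names cover subunits of TFIID, which binds core promoters together with the TATA-binding protein, of SAGA, and of SL1, the promoter factor of RNA polymerase I. Of 23 genes 20 were tested, with 6 rises and 1 fall in 4-cell embryos, 5 rises and 1 fall in 8-cell embryos (against MII) and 1 fall between the embryo stages. Over all genes tested the rises and falls were 24.7 and 6.42%, 27.3 and 10.0%, and 3.06 and 5.24%. *TAF1*, the largest TFIID subunit, was at 6.61 to 9.14 FPKM at MII, 6.45 to 9.21 in 4-cell embryos and 4.12 to 7.93 in 8-cell embryos and was not called as deposited. *TAF10*, shared by TFIID and SAGA, fell from 59.9, 83 and 45.9 FPKM to 29.1, 21.4 and 23.5 and then 16.3, 25 and 18.7 (fell by 1.29 and by 1.58 against MII, adjusted p = 0.0048 and 0.0013), in each rescaling and without each library. *TAF12* rose from 133, 138 and 162 FPKM at MII to 267, 394 and 365 in 8-cell embryos (1.23 ± 0.20, adjusted p = 0.0016), a call kept in 2 of 3 rescalings. *TAF13* was highest in 4-cell embryos, with 86.4, 80.1 and 86.7 FPKM at MII, 176, 130 and 201 in 4-cell and 75.3, 103 and 104 in 8-cell libraries, a rise of 0.97 (adjusted p = 0.0061) in no rescaling and a fall of 0.83 (adjusted p = 0.037) in 1 of 3. *TAF1D* of SL1 rose from 8.45, 6.72 and 3.28 FPKM to 26, 18.8 and 30.3 and then 15.5, 40.9 and 20.6 (1.91 ± 0.40 and 1.86 ± 0.40 against MII, adjusted p = 0.0061 and 0.0055), in each rescaling and without each library. Its SL1 partner *TAF1A* rose in 4-cell embryos only by the scaling as deposited (0.64, adjusted p = 0.04), and *TAF1B*, at 48.7 to 83.3 FPKM, was not called as deposited.

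Several of these genes have a paralog that fills the same place in the complex, and the share of a paralog in the summed FPKM of its pair does not depend on the scaling of the library. *TAF5L* takes the place of *TAF5* in SAGA. Its share of the pair was 24.4, 29.4 and 22.4% at MII, 46.1, 45 and 38.3% in 4-cell embryos and 60.1, 57.3 and 47.5% in 8-cell embryos. The stages did not overlap. The gene itself rose from 4.05 to 6.74 FPKM to 10.9 to 20.8 in 8-cell embryos (1.27, adjusted p = 0.0096), a call kept in 1 of 3 rescalings, whereas *TAF5* went from 14 to 16.2 FPKM to 9.01 to 13.8 and was not called as deposited (log2 fold change -0.40 ± 0.20), but was called lower in each rescaling (-0.76 with equal median ratios, adjusted p = 0.021). *TAF9B* held 0.532, 2.11 and 1.43% of the pair with *TAF9* at MII, 5.01, 6.11 and 6.07% in 4-cell embryos and 15.4, 5.28 and 9.6% in 8-cell embryos. It was itself at 0.294, 1.01 and 0.603 FPKM at MII, 4.35, 2.73 and 4.57 in 4-cell embryos and 6.74, 4.64 and 6.54 in 8-cell embryos (1.58 ± 0.27 and 2.10 ± 0.27 against MII, adjusted p = 0.0026 and 0.00046), in each rescaling and without each library. *TAF9* was at 37.2 to 83.3 FPKM over the 9 libraries and was not called.

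The germ cell paralogs did not share 1 direction. *TAF4B* held 46.9 to 54.2% of the pair with *TAF4* at MII, 56.9 to 64.2% in 4-cell embryos and 51.4 to 66.3% in 8-cell embryos, and rose to 8-cell embryos by 1.14 (adjusted p = 0.0032) in each rescaling. *GTF2A1L* held 77.3, 86.2 and 76.8% of its pair at MII, 59.2, 61 and 74.3% in 4-cell embryos and 56.5, 68.5 and 59.5% in 8-cell embryos, so every embryo library lay below every oocyte library. *POLR3G* held 84.1 to 87.6% of the pair with *POLR3GL* at MII and 92.2 to 98.7% in the embryos. *TAF7L* held at most 2.07% of the pair with *TAF7* in any untreated library. *TAF6L* held 18.6 to 25% of the pair with *TAF6* at MII and 31.3 to 82% in the embryos, but from as few as 9 fragments of *TAF6* and 32 of *TAF6L* in a library. In the Mediator kinase module *MED12L* held 96.8% or more of the pair with *MED12*, which had at most 47 fragments in an untreated library, and *MED13L* held 51.6 to 73.9% of the pair with *MED13*. By exact two-sided permutation of 3 libraries against 3 the smallest p is 0.1, reached by 12 of 27 comparisons of 9 pairs (0.225 after Benjamini-Hochberg adjustment), so no pair could pass the threshold.

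**Figure D3:**
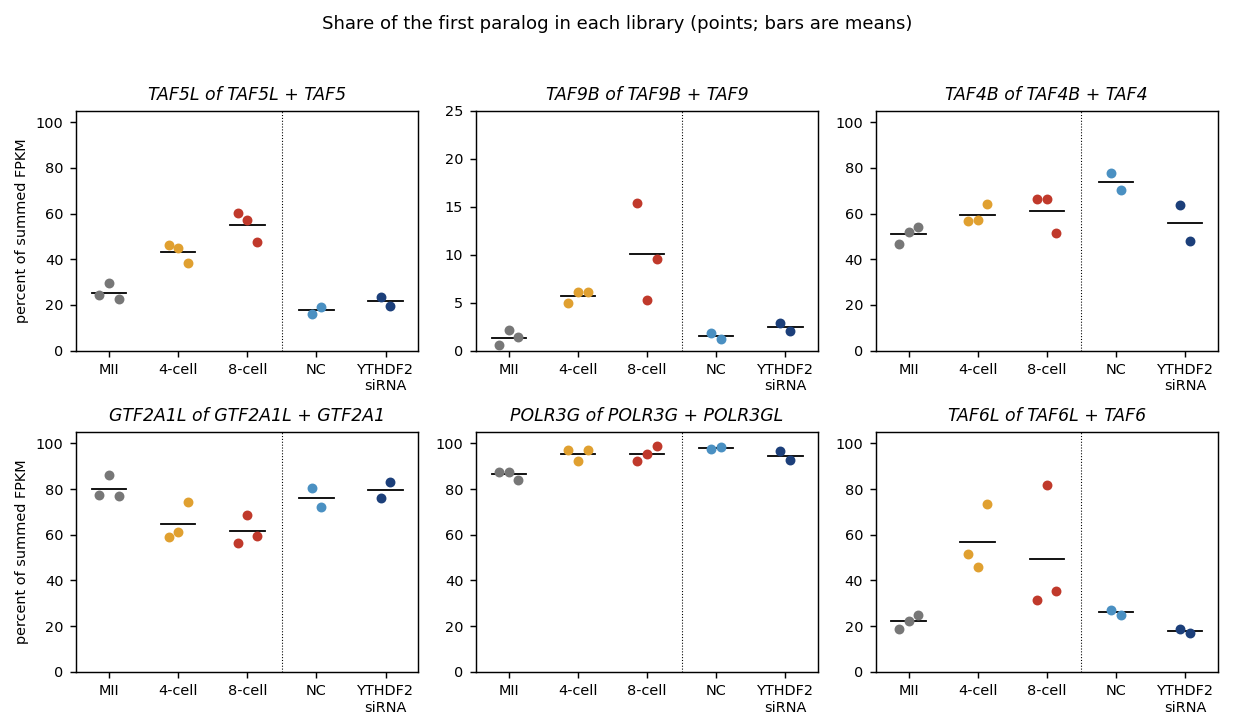
Share of the first named paralog in the summed FPKM of its pair, in percent (vertical axis, to 25 for *TAF9B*), in each of the 13 libraries by group (horizontal axis), with bars at the means. A dotted line parts the untreated groups from the injected ones. *TAF5L* is at 22.4 to 29.4% at MII, 47.5 to 60.1% in untreated and 16.1 to 19.2% in NC siRNA 8-cell embryos.

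Of the 30 Mediator genes 24 were tested, with 2 rises and 2 falls in 4-cell embryos, 5 rises and 5 falls in 8-cell embryos (against MII), and 1 rise and 4 falls between the embryo stages. Over all genes tested the rises and falls were 24.7 and 6.42%, 27.3 and 10.0%, and 3.06 and 5.24%. Differences from these shares were not tested. *MED14*, the scaffold that holds the modules together, was at 34.3, 29.3 and 31.4 FPKM at MII, 33.7, 48.5 and 29.9 in 4-cell embryos and 17.4, 18.3 and 15.9 in 8-cell embryos. It was not called in 4-cell embryos (0.21 ± 0.20) and fell in 8-cell embryos, by 0.84 against MII (adjusted p = 0.01) and by 1.05 against 4-cell embryos (adjusted p = 0.018), in each rescaling. *MED1*, the contact for nuclear receptors, was at 9.75 to 25 FPKM over the 9 libraries and was not called as deposited.

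In the middle module *MED10* had the largest fall in 4-cell embryos, from 227, 255 and 181 FPKM to 46.3, 57.9 and 59.6, and stayed at 54.3, 49.6 and 60.7 in 8-cell embryos. It fell by 1.99 ± 0.18 on the log2 scale in 4-cell embryos (adjusted p = 0.00014) and by 1.98 ± 0.18 in 8-cell embryos (adjusted p = 9.3e-05), in each rescaling and without each library. *MED21* had the highest mean FPKM of the members at MII, with 292, 296 and 349 FPKM at MII, 311, 226 and 361 in 4-cell embryos and 126, 177 and 164 in 8-cell embryos (fell by 1.01 against MII, adjusted p = 0.0047, and by 0.93 against 4-cell embryos, adjusted p = 0.028, a call kept in 2 of 3 rescalings and in 4 of 9 fits without a library). *MED7* peaked in 4-cell embryos, with 3.43, 5.2 and 3.42 FPKM at MII, 18.9, 16.2 and 17.9 in 4-cell embryos and 6.13, 10.6 and 6.6 in 8-cell embryos. Its rise was 1.91 ± 0.25 (adjusted p = 0.00064), in each rescaling, and its fall 1.12 (adjusted p = 0.026), in 2 of 3. *MED26*, which recruits elongation factors, was at 0.0556, 0.117 and 0.0149 FPKM at MII (6, 13 and 2 fragments), 0.32, 1.14 and 0.276 in 4-cell embryos and 4.24, 2.53 and 2.12 in 8-cell embryos, without overlap. It rose by 1.86 ± 0.30 from MII to 8-cell embryos (adjusted p = 0.0012) and by 1.33 between the embryo stages (adjusted p = 0.027), the latter not called without MII replicate 1 or without 4-cell replicate 1 or 3. With a mean of 0.321 FPKM over the other libraries it entered the fit only through the 8-cell group, where it was high, so these tests are no independent support for its rise.

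In the head module *MED6* fell in 8-cell embryos, from 247, 265 and 209 FPKM to 77.5, 206 and 99.3 (fell by 1.03, adjusted p = 0.04), with the call kept in 3 of 9 fits without a library. *MED28*, another Mediator subunit, rose from 1.29, 3.24 and 1.24 FPKM to 10.9, 11.7 and 14.9 in 4-cell embryos and 16.7, 18.2 and 19 in 8-cell embryos. The stages did not overlap, and the rise of 2.76 ± 0.27 in 8-cell embryos (adjusted p = 0.00013) was called in each rescaling and without each library. *MED15* fell in 4-cell embryos, from 9.66, 6.82 and 9.23 FPKM to 1.45, 3.72 and 1.8 (fell by 1.57, adjusted p = 0.015), and was at 7.48, 2.17 and 2.88 in 8-cell embryos (adjusted p = 0.072 against MII as deposited, with the fall called in each rescaling, at 0.012 with equal median ratios). *MED23* was at 2.81, 2.94 and 2.63 FPKM at MII, 2.88, 3.12 and 2.91 in 4-cell embryos and 0.854, 0.787 and 1.24 in 8-cell embryos (fell by 0.96 against MII, adjusted p = 0.0059). In the kinase module *MED12L* rose in 8-cell embryos by 0.85 (adjusted p = 0.048), in no rescaling.

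Gene model length varied with some of these values. Over all tested genes with a model under 1 kb, the median log2 difference from the other MII libraries was 0.486 for MII replicate 2 and -0.473 for MII replicate 3. The 13 members under 1 kb had a median log2 fold change of -0.31 in 8-cell embryos against MII, beside -0.35 for all 857 genes of that length. The 26 members of 4 kb or more had a median of 0.25, beside 0.42 for all genes of that length. The part of length in the calls was not tested.

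A list of 42 partners of these complexes under other names, such as the TATA-binding protein family, the TFIIH and Mediator kinases and the pausing factors, was counted beside them, and 35 were tested at the stages. Against MII 13 rose (37.1%, beside 24.7% of all genes) and 4 fell (11.4%, beside 6.42%) in 4-cell embryos. In 8-cell embryos 9 rose (25.7%, beside 27.3%) and 5 fell (14.3%, beside 10.0%), and between the embryo stages 2 rose (5.71%, beside 3.06%) and 3 fell (8.57%, beside 5.24%). Under the rescalings the 13 rises in 4-cell embryos became 5, 3 and 3 (beside 11.9, 9.57 and 9.67% of all genes), and the 4 falls became 6, 7 and 9 (beside 10.1, 13.2 and 14.7% of all genes). In 8-cell embryos the 9 rises became 8 in each (22.9%, beside 15.1, 14.9 and 13.3% of all genes) and the 5 falls 8, 7 and 7 (beside 14.7, 16.1 and 19.3%). *TBPL1* and *TBPL2*, relatives of the TATA-binding protein, were among the rises. *TBPL1* had means of 755 ± 66.6 (SD, n = 3) FPKM at MII and 2429 ± 398 in 8-cell embryos (log2 fold change 1.35 and 1.68 against MII, adjusted p = 0.00048 and 0.00011). *CDK8*, the kinase of the Mediator kinase module, went from 31.6 ± 14.1 FPKM to 117 ± 28.1 in 4-cell embryos (adjusted p = 0.0014), and *PAF1*, of the elongation complex of that name, from 15.2 ± 8.56 to 68 ± 10.8 in 8-cell embryos (adjusted p = 0.00084). *ZNRD1*, a subunit of RNA polymerase I now also named *POLR1H*, fell from 13 ± 5.69 FPKM to 3.2 ± 1.03 and then 1.42 ± 1.37 (adjusted p = 0.022 and 0.0022 against MII). *TCEA1*, the elongation factor TFIIS, held 97 ± 11.4 FPKM in 4-cell embryos and fell to 51.3 ± 2.05 in 8-cell embryos (adjusted p = 0.011, or 0.051 with equal median ratios). Of the pausing and elongation genes, *NELFA* fell against MII at both embryo stages (adjusted p = 0.047 and 0.027) and *CDK9* in 4-cell embryos (adjusted p = 0.036). *ELL2* rose in 8-cell embryos against MII (adjusted p = 0.0021) and against 4-cell embryos (adjusted p = 0.048). Between the embryo stages *CDK7* and *RRN3* fell (adjusted p = 0.026 and 0.048). With equal median ratios no partner was called between the embryo stages.

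In the injected embryos *YTHDF2* was at 112 and 159 FPKM with NC siRNA and at 8.07 and 4.47 with YTHDF2 siRNA. In the untreated 8-cell libraries, scaled separately, it was at 10.8, 16.7 and 12.5 FPKM, far below both NC siRNA libraries. The cause of that gap was not tested. The depth of the injected libraries is unknown, since their FPKM values are rounded to 2 decimals. Of the 108 genes 100 were tested, and 9 fell where 5.92% of all 11004 genes fell. None rose where 2.06% of all genes rose. By limma at an unadjusted p under 0.05, 9 members were higher and 20 lower, beside 11.9% and 17.6% of all genes, and by the rule of the study (unadjusted p under 0.05 and over 2-fold) 4 were higher and 19 lower, beside 9.48% and 15.3% of all genes. The members' median log2 fold change was -0.135, beside 0.00543 for all genes. The 25 RNA polymerase genes tested had a median of -0.51, with 5 of them above 0 and 8 lower by the rule of the study, and the 6 GTF3 genes a median of -0.21. The medians of the 13 GTF2, 21 TAF, 28 Mediator and 7 SUPT genes were 0.56, 0.07, -0.10 and 0.10. Within Mediator the 8 head genes had a median of -1.04, the 8 middle genes -0.17, the 8 tail genes 0.15 and the 3 kinase module genes 0.23. Differences between these groups were not tested. The calls rest on the filter: with no filter on low values limma called 0 of all 20357 genes (3731 at an unadjusted p under 0.05), and the 9 members had adjusted p of 0.17 to 0.19. With 2 libraries a group, each a pool, the p-values measure only the spread between these libraries.

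**Figure D4:**
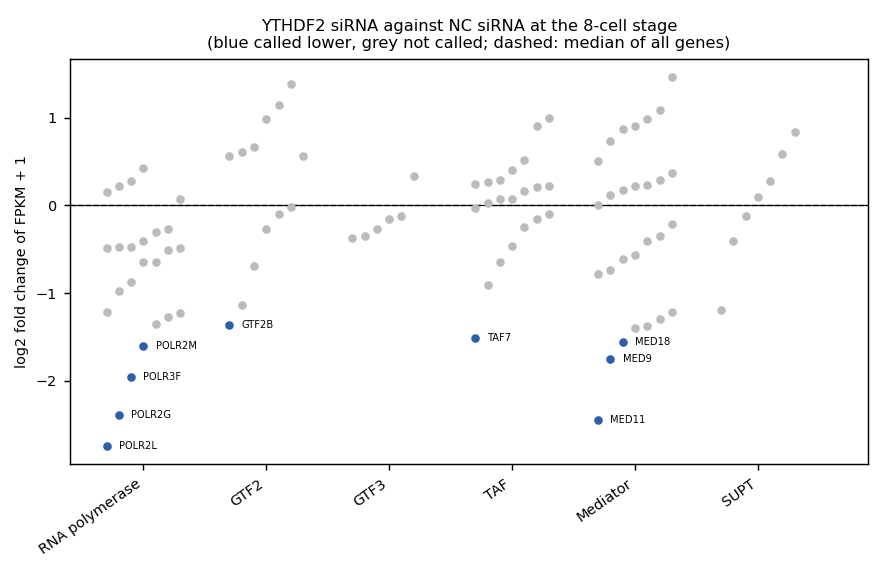
Log2 fold change of FPKM + 1 (vertical axis) in YTHDF2 siRNA against NC siRNA embryos for the 100 tested members, by gene group (horizontal axis). The 9 genes called lower are blue and named, from *GTF2B* at -1.36 to *POLR2L* at -2.74, the grey points were not called, and the dashed line is the median of all 11004 genes.

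The falls touched subunits of RNA polymerase II and III, Mediator, TFIID and TFIIB. *POLR2L*, one of the shared polymerase subunits, was at 51.2 and 50.3 FPKM with NC siRNA and 11.3 and 3.89 with YTHDF2 siRNA (fell by 2.74 ± 0.47, adjusted p = 0.0062). *POLR2G* of the stalk was at 269 and 272 FPKM against 43.2 and 59.9 (fell by 2.39 ± 0.39, adjusted p = 0.0046). *MED11* of the Mediator head was at 6.12 and 10.3 FPKM against 0.98 and 0.36 (fell by 2.45 ± 0.44, adjusted p = 0.0078). With a mean of 0.67 FPKM with YTHDF2 siRNA it entered the fit only through the NC siRNA group, so its test is no independent support for its fall. A fit without a library leaves 1 library in its group, which is then assumed to vary like the other group, so these fits say little of stability. The calls of *POLR2G* and *MED11* were kept in all 4 of them, and that of *POLR2L* in 3. *POLR3F*, of the RNA polymerase III initiation subcomplex, was at 19.6 and 22.5 FPKM against 7.3 and 2.9 (adjusted p = 0.023), and *MED9* of the middle module at 18.8 and 13.7 against 6.34 and 2.52 (adjusted p = 0.036). *POLR2M* was at 12.5 and 17.9 FPKM against 4.38 and 4.17 (adjusted p = 0.036), *MED18* at 21.3 and 17.6 against 7.19 and 4.81 (adjusted p = 0.04), and *TAF7* of TFIID at 79.5 and 87.1 against 38.3 and 21.2 (adjusted p = 0.042). In these 5 genes the groups did not overlap, and each kept its call in 1 of 4 fits without a library. With equal median ratios *MED9*, *POLR2M*, *MED18* and *TAF7* were not called (adjusted p = 0.052, 0.057, 0.051 and 0.065). *GTF2B* was at 120 and 120 FPKM against 41.4 and 51.3 (adjusted p = 0.046), and this call was kept in neither rescaling and in none of the 4 fits without a library.

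*MED10* and *TAF10*, which fell after MII, were at 220 and 175 FPKM with NC siRNA against 277 and 208, and at 110 and 82.4 against 118 and 159, and were not called. *SUPT4H1* was at 2242 and 1016 FPKM with NC siRNA and 1939 and 1735 with YTHDF2 siRNA, and *SUPT5H* at 9.51 and 8.14 against 17.4 and 4.98, so the ratio between them was 125 to 236 and 112 to 348. The largest subunits *POLR2A* (10.8 and 7.01 against 8.26 and 4.06 FPKM), *POLR1A*, *POLR2B*, *TAF1*, *MED1*, *MED14* and *SUPT16H* were not called, and *MED12* was not tested. *POLR3A* was at 5.84 and 5.77 FPKM against 2.3 and 1.42, without overlap, and was lower by the rule of the study but not called (log2 fold change -1.27 ± 0.42, adjusted p = 0.075). The members that were higher by the rule of the study alone were *GTF2A2* (85.5 and 64.4 against 143 and 267 FPKM), *GTF2F2*, *MED15* and *MED22*, with adjusted p of 0.056 to 0.11.

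YTHDF2 siRNA replicate 1 lay more than 2-fold above replicate 2 in 17 of the 100 members, *POLR2L*, *MED11*, *MED9* and *POLR3F* among them, and below it in 4. The same was not counted over all genes, so this spread is not shown to be particular to the members. The oocyte markers summed to 671 and 450 FPKM with NC siRNA and 850 and 1639 with YTHDF2 siRNA, the cleavage markers (3 of 5 listed) to 2827 and 3038 against 3077 and 2759, the cumulus markers to 50.3 and 43.1 against 90.6 and 81.4, and the sperm markers (5 of 6 listed) to 21.7 and 12.7 against 27.1 and 5.13. Of the 10 cumulus markers, 4 reached 1 FPKM in each of these libraries, while *FSHR*, *INHA* and *FOXL2* were below 0.1 FPKM in all 4. The 9 members that fell had a median gene model of 1378 bases, beside 2468 for all members tested, and the 1110 tested genes with a model under 1 kb had a median log2 fold change of -0.46. The part of these in the members' falls was not tested. Of 39 tested partners, *LEO1* of the PAF1 complex rose, from 141 ± 71.3 (SD, n = 2) to 363 ± 2.45 FPKM (adjusted p = 0.047), and 4 fell (10.3%, beside 5.92% of all genes). With equal median ratios none of them rose and 1, *CCNC*, fell. *CCNC*, the cyclin of the Mediator kinase module, fell from 14.7 ± 6.72 to 2.38 ± 0.163 FPKM (adjusted p = 0.014), *SNAPC5*, of the complex at small nuclear RNA genes, from 64.6 ± 26 to 19.2 ± 12.1 (adjusted p = 0.04), and *NELFE*, of a pausing factor, from 25.8 ± 1.03 to 8.12 ± 5.47 (adjusted p = 0.043).

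Control embryos of the injection experiment were also taken as 8-cell embryos, but the FPKM of both experiments were scaled separately, so the levels are set side by side without a test. Both NC siRNA libraries lay above all 3 untreated 8-cell libraries for 53 of 107 members, beside 29.5% of all 18138 names listed in both, and below them for 18, beside 23.9%. For 12 members each NC siRNA library was more than 10-fold above each untreated library (8.08% of all names), a limit chosen after the values were seen. They were *GTF2B*, *MED9*, *MED11*, *MED29*, *MED31*, *POLR1C*, *POLR1E*, *POLR2E*, *POLR2G*, *POLR2H*, *POLR2I* and *POLR2L*. *MED31* of the middle module had the highest ratio, with 291 and 521 FPKM beside 0.33, 2.71 and 0.246. *POLR2I*, a core subunit of RNA polymerase II, was at 115 and 262 FPKM beside 1.43, 2.15 and 1.25. In the untreated set the MII library with the highest *MED31* (2.84 FPKM), *POLR2I* (5.29), *POLR2L* (15.6) and *MED29* (10.7) was replicate 2 each time. This comparison and the knockdown share the NC siRNA libraries. Of the 9 paralog shares, both NC siRNA libraries lay above the untreated 8-cell libraries for 2 and below them for 4, and the groups overlapped for 3. *TAF5L* was at 16.1 and 19.2% of its pair with NC siRNA, below the 47.5 to 60.1% of the untreated 8-cell embryos.

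**Figure D5:**
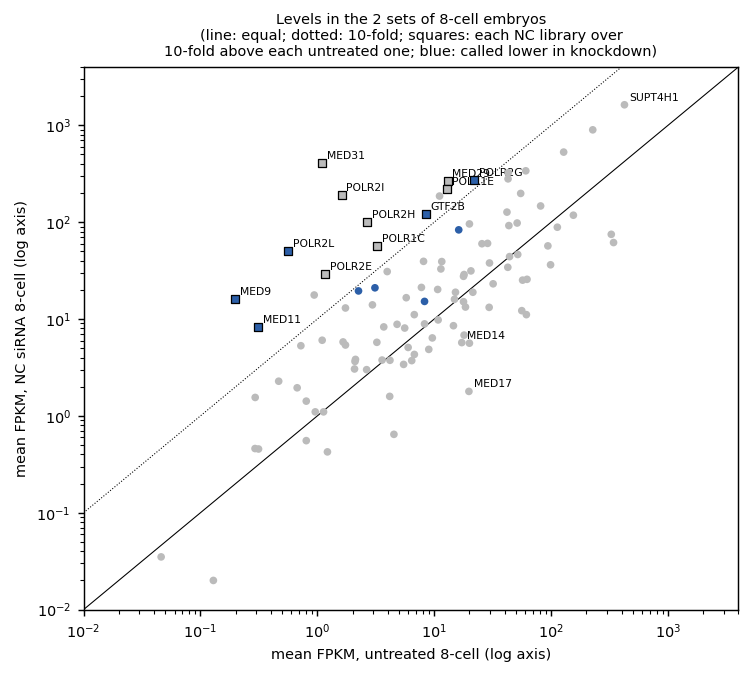
Mean FPKM of 107 members in the 3 untreated 8-cell libraries (horizontal, log axis) and in the 2 NC siRNA libraries (vertical, log axis), with a solid line at equal levels and a dotted line at 10-fold. Squares mark the 12 members with each NC siRNA library over 10-fold above each untreated one, and blue marks members called lower with YTHDF2 siRNA. *MED31* is farthest from the line, at 1.1 and 406 FPKM.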

How the data were processed

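FPKM values were deposited by the authors, who mapped reads to ARS1 by HISAT2, discarded those without a single location and counted the rest by HTSeq, with no strand setting stated. Reads shared with a near-identical gene copy are therefore not counted. Fragments behind the FPKM of the untreated libraries were recovered from their whole steps (17917 of 17918 shared genes above 0). For genes whose mean reached 1 FPKM, limma 3.58.1 (R 4.3.3, mean-variance trend, no covariate) was run on log2(FPKM + 1), once for the 9 untreated and once for the 4 injected libraries. Adjusted p are Benjamini-Hochberg values over all genes of a fit. The study's rule (unadjusted p under 0.05, over 2-fold) stands beside them. The authors' DESeq2 calls were not used. On simulated stage data with 9090 genes, 98 of 100 changes of 3 and 22 of 100 changes of 1 (log2) were called. With the 11004 genes of the injected libraries it was 100 and 8. Of the unchanged genes 7 and 10 were called. Only 200 genes were changed in each, a smaller share than was called against MII, so detection there can differ. Rescalings set equal median ratios, equal sums of FPKM or, for stages, the fragments on shared genes as total. The labels do not say whether replicates were separate cultures, so p-values measure the spread between these libraries. Named are, per comparison and direction, the 8 members called with the largest change, the members of 9 paralog pairs and the largest subunits, with other called members named after their values were seen. Partners named are up to 3 a direction, by change. Members and lists were chosen with earlier results of these data known. All 108 members matched a table of gene symbols from RefSeq, which was used for names alone. Other steps ran in Python 3.11.15 (pandas 2.3.3, numpy 2.4.6). Same-numbered stage libraries did not deviate together (correlations of -0.508 to 0.201).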

Additional observations from a re-analysis of the deposited data

How the results depend on the processing

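The calls of *SUPT4H1*, *MED28*, *TAF9B*, *TAF1D*, *GTF2E2*, *MED10*, *GTF2B* and *TAF10* against MII held in all 3 rescalings and without each library, and of all called members *GTF2I* in 8-cell embryos alone did not keep its sign in each rescaling (0.50 as deposited, lowest -0.00). Counts moved more. Rises and falls at the 4-cell stage against MII, 21 and 7 as deposited, were 13 and 11 with equal median ratios, 9 and 13 with equal sums and 10 and 17 with fragments on shared genes as total. At the 8-cell stage against MII, 22 and 16 became 11 and 23, 10 and 24, and 10 and 28. Without 1 library they ranged from 16 to 23 and from 4 to 10 at the 4-cell stage (fewest falls without MII replicate 1), and from 13 to 22 and from 9 to 17 at the 8-cell stage (moved by over 1.5 times without MII replicate 1 or 2 or 8-cell replicate 3).

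Between the embryo stages, 2 rises and 8 falls, rises were 1 with a pseudocount of 0.1, in a fit of the 2 stages alone and with a replicate block, and 4 by the study's rule. Falls were 5 without a filter, 4 with equal median ratios, 2 in the fit of the 2 stages and 2 with a replicate block. Without 1 library they ranged from 0 to 2 and from 1 to 8 (each of the 4-cell libraries, 8-cell replicate 1 or 3 and MII replicate 1 moved them).

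In the knockdown, 0 rises and 9 falls, rises were 1 with equal sums and 4 by the study's rule. Falls were 0 without a filter, 4 with equal median ratios and 19 by the study's rule. The replicate block gave 5 falls. Since same-numbered libraries deviated in opposite directions (correlation -0.152), the crossed pairing was added after seeing the data and gave 3 rises and 19 falls. Without 1 library they ranged from 0 to 3 and from 2 to 15, each library moving them, with most falls without YTHDF2 siRNA replicate 1. Leaving out MII replicate 2 and 8-cell replicate 1 together, chosen after seeing the data, gave 24 and 6, 23 and 13, and 2 and 7. The cause of these shifts was not tested. The numbers do not pair the stage libraries. Without 1 library, the differences in paralog share against MII that lay apart ranged from 6.01 to 10.1 (*TAF4B*), 16.3 to 20.2 and 27 to 33.3 (*TAF5L*, 4-cell and 8-cell), -20 to -12.2 and -22.2 to -15.6 (*GTF2A1L*), 3.96 to 4.75 and 6.08 to 11.1 (*TAF9B*), 7.87 to 10.6 and 7.52 to 10.6 (*POLR3G*), and 26.8 to 40.5 and 11.2 to 36.6 (*TAF6L*) percentage points. For *TAF6L* in 8-cell embryos the 27.5 with all libraries became 11.2 without 8-cell replicate 2. Injected depth is unknown, and members under 1 FPKM were not tested.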

Other observations

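Summed FPKM of all subunits shared by the 3 polymerases was 103 to 160 at MII, 150 to 217 at the 4-cell stage and 55.6 to 112 at the 8-cell stage, while that of the RNA polymerase III subunits was 93.2 to 103, 84.1 to 105 and 115 to 203. These differences follow the deposited scaling. As a share of the FPKM sum of the library, the shared subunits were at 0.0361 to 0.0553%, 0.0384 to 0.0502% and 0.0149 to 0.0282%, and the RNA polymerase III subunits at 0.0326 to 0.0358%, 0.0201 to 0.0271% and 0.029 to 0.0544%. The sum of 203 FPKM was in 8-cell replicate 1, where *POLR3D* alone was at 96.2 FPKM, against 12.5 and 23.5 in the other 8-cell libraries. *GTF2F1* of TFIIF was likewise at 95.6 FPKM in this library and at 16 and 18.7 in the others. Without it, the log2 fold change of *POLR3D* at the 8-cell stage against MII went from 0.69 to -0.12 and that of *GTF2F1* from 0.97 to 0.17, and neither was called in any of these fits.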
